A study of Mus musculus with 12 samples.

Results

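The expression of 10 genes that mark Langerhans cells and dendritic cells, the antigen-presenting cells of skin, was followed in bulk RNA sequencing of mouse skin. The genes were listed by name, but earlier results of these data were known when they were chosen. They are Cd207, Epcam, Itgax, Flt3, Zbtb46, Xcr1, Cd209a, Ccr7, Cd86 and Batf3, which are 10 of the 53465 gene identifiers counted. The 12 libraries fall into 4 groups of 3: UVB-irradiated skin and untreated skin, each from mice with an altered Foxp3 (DE2) and from mice with wild-type Foxp3 (WT). Foxp3 specifies regulatory T cells; the altered form is written Foxp3-E2 in the sample labels, Foxp3-DE2 in the protocol and Foxp3dExon2 in the series title, and these were taken as 1 genotype. Irradiated skin had received 6 doses of ultraviolet B light on a shaved flank patch. Each dose was 200 mJ/cm2 in the sample labels and 100 mJ/cm2 in the protocol. Untreated skin came from another site. An effect of UVB, or a change after UVB, here means irradiated against untreated skin. Irradiation and body site cannot be told apart in it. The labels name no strain, age, sex or animal, so a p-value here reflects variation among libraries, which may come from the same mouse. Nor do they number the replicates. The replicate numbers used here follow the order of the samples within each group, and equal numbers in different groups mark no pair.

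Langerhans cells live in the epidermis, carry langerin (the product of Cd207) and Epcam, and are kept alive there by IL-34 from keratinocytes and by TGF-beta signalling. Conventional dendritic cells of the dermis arise from Flt3-dependent precursors and express the transcription factor Zbtb46; the type 1 subset needs Batf3 and carries the chemokine receptor Xcr1, and the type 2 subset includes cells with the lectin Cd209a. On activation, both Langerhans cells and dendritic cells raise the costimulatory ligand Cd86 and the receptor Ccr7, leave the skin and migrate to lymph nodes. UVB is known to cause epidermal Langerhans cells to leave mouse skin.

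The promoters of Cd207, the Langerhans cell marker, of Itgax and of Batf3 are shown here; these 3 of the 10 members were picked after their values had been seen, as genes described at length. Each window runs from 250 bases before to 50 bases after the start that RefSeq gives on GRCm38.p6, on the gene's own strand: chr6:83677808-83678107 (minus strand) for Cd207, chr7:128129300-128129599 (plus strand) for Itgax and chr1:191098164-191098463 (plus strand) for Batf3. Capitals mark matches to the AP-1 motif TGANTCA, the PU.1-type ETS motif GAGGAAG or the RUNX motif TGTGGT, searched on both strands.
Cd207: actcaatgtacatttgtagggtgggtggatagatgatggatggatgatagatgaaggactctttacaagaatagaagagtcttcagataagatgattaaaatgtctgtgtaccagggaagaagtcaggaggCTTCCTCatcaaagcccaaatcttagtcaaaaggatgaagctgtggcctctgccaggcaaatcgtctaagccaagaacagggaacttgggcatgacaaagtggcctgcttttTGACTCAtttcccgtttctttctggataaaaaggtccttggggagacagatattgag
Itgax: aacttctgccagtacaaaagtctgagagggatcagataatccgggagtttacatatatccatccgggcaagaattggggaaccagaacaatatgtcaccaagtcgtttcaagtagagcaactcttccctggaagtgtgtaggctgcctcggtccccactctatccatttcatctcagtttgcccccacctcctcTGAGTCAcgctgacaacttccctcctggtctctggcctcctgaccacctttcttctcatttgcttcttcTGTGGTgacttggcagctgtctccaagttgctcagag
Batf3: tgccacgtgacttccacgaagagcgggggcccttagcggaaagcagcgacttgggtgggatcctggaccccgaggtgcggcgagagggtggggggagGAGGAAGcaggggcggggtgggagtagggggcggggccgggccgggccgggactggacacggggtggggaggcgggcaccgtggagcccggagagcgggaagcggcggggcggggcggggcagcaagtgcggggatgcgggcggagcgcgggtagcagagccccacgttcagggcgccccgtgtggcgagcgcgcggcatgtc
In Cd207 the ETS match, on the opposite strand, starts 119 bases before the start and the AP-1 match 7 bases before it. Itgax has an AP-1 match 56 bases before the start and a RUNX match 13 bases after the start, and Batf3 has an ETS match 153 bases before the start. No matches overlap in these windows. Of 32851 RefSeq promoter windows of this length, 7.81% hold the AP-1 motif, 13.6% the ETS motif and 16.8% the RUNX motif. Windows were matched for 8 of the 10 members; Zbtb46 also had an AP-1 match, and Epcam, Flt3, Cd209a and Xcr1 had none of the 3 motifs. A match describes these letters and does not show that a factor binds there.

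Library totals were 2809142 to 4062053 counts in irradiated DE2 skin, 2915273 to 4212640 in irradiated WT skin, 4205055 to 4741726 in untreated DE2 skin and 3852586 to 4392982 in untreated WT skin. Foxp3 itself had 1, 7 and 0 counts in irradiated DE2 libraries and 0 in the other 9, and counts per gene cannot show whether its second exon was present. On the first principal component, with 39.7% of the variance, the untreated DE2 libraries scored 101.8 to 134.6 and all others -73.7 to -11. They held 5.59% to 9.88% of their counts in 14 skeletal muscle genes, against 1.38% to 5.35% in the other libraries. In 13 hair follicle genes they held 0.0118% to 0.0762%, against 0.912% to 2.86%. Every comparison with untreated DE2 skin given here runs alongside these shifts, and their part in it was not tested.

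At this depth the members were sparse. They drew 8978 counts over the 12 libraries, and Epcam, which epithelial cells express as well, accounted for 81.7% of them. Per transcript length, Epcam averaged 174 TPM (a level scaled for the combined exon length of each gene) over all libraries. Cd209a averaged 14.8 TPM, Cd207 11.1, Cd86 5.12, Batf3 2.27 and Zbtb46 1.68 TPM. Ccr7 (0.974 TPM), Itgax (0.825), Flt3 (0.192) and Xcr1 (0.128) lay lowest. Every member had a count in at least 3 of the 12 libraries, but defining markers of several subsets stood at or near 0, so the type 1 subset (Xcr1, 11 counts in all) and the Flt3-bearing cells (24 counts) could hardly be followed.

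Of the 10 members, 6 passed edgeR's filter on low counts and were tested among 15126 genes: Cd207, Epcam, Itgax, Cd86, Zbtb46 and Cd209a. Itgax passed only through irradiated DE2 skin, where it was high, so its tests against that group were biased toward a difference. With edgeR's quasi-likelihood test and Benjamini-Hochberg adjustment over all genes tested, 0 of the 6 passed an adjusted p of 0.05 between irradiated DE2 and irradiated WT skin, where 2.96% of all genes did. Itgax and Cd86 had an unadjusted p under 0.05 there, and DESeq2 also called 0, of 7 members with an adjusted p. Between untreated DE2 and untreated WT skin 1 member passed (Epcam, lower), against 23.0% of all genes. Between irradiated and untreated DE2 skin 1 passed (Cd207, lower), against 27.8%. Between irradiated and untreated WT skin edgeR called 0 members, against 0.0198% of all genes; 1 member (Cd207) had an unadjusted p under 0.05 and DESeq2 called 0 of 10. For the interaction, the difference between the effects of UVB in DE2 and in WT, edgeR called 0 members against 10.5% of all genes. Itgax had an unadjusted p under 0.05, and DESeq2 called 1 member of 7, Batf3. The mean of both UVB effects, a comparison added after the values had been seen, called 1 member (Cd207, lower), against 14.7%. With 6 members tested, 1 call is 1 in 6, a share near that of all genes in these comparisons, so the counts alone say nothing particular about the members.

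**Figure D1:**
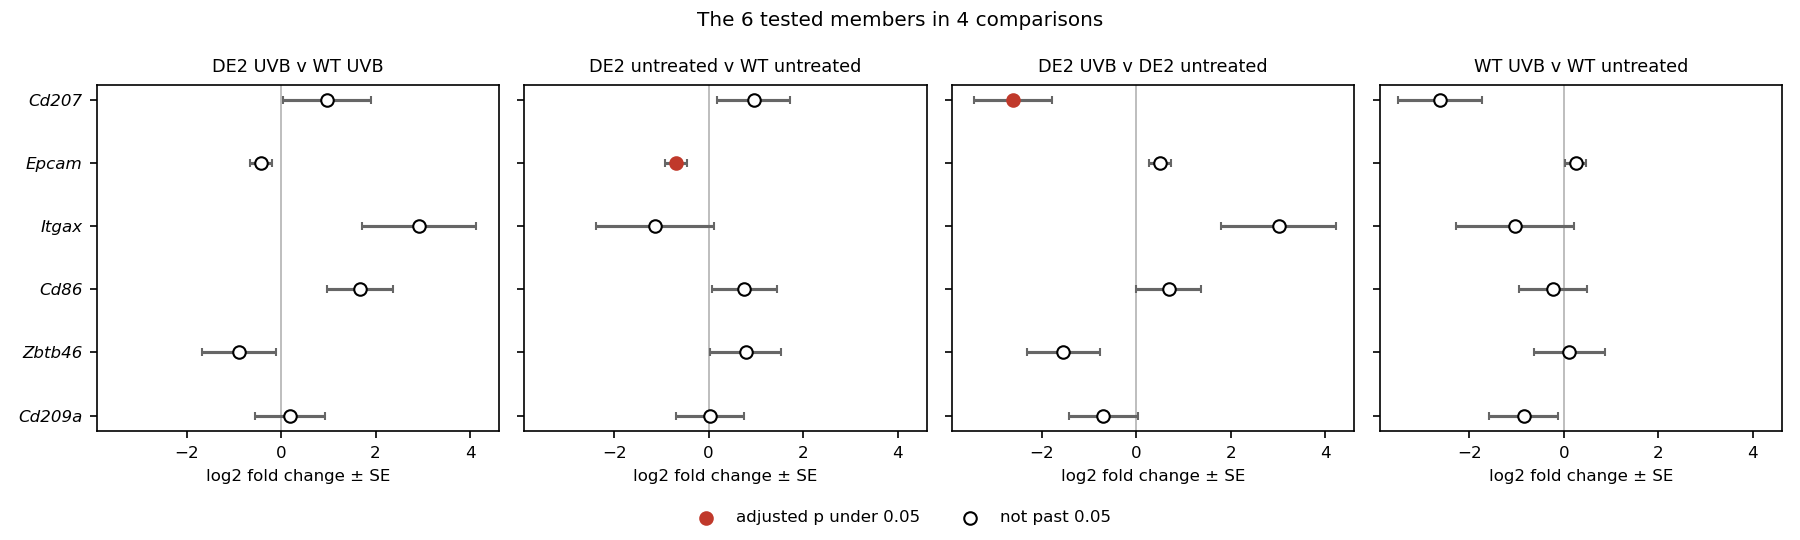
Log2 fold change (horizontal axis, bars ± SE) of the 6 tested members in the 4 pairwise comparisons, with filled points for an adjusted p under 0.05 in edgeR's quasi-likelihood test. Cd207 lies at -2.61 in DE2 skin and -2.62 in WT skin after UVB, and Itgax and Cd86 lie right of 0 between irradiated DE2 and irradiated WT skin.

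Cd207 encodes langerin, the lectin that forms the Birbeck granules of Langerhans cells and is also found on some type 1 dendritic cells of the dermis (ENSMUSG00000034783, chromosome 6, 83671215 to 83677857, minus strand, GRCm38). Irradiated skin held less Cd207 RNA than untreated skin in both genotypes. It stood at 3.26, 1.21 and 3.28 CPM (counts relative to the TMM-scaled size of each library) in irradiated DE2 libraries, 3.29, 0 and 0.608 CPM in irradiated WT libraries, 26.1, 9.62 and 11.4 CPM in untreated DE2 libraries, and 11.8, 4.19 and 8.34 CPM in untreated WT libraries. All 6 irradiated libraries lay below all 6 untreated libraries, and the closest pair was irradiated WT replicate 1 (3.29 CPM) and untreated WT replicate 2 (4.19 CPM). These values rest on 26 and 14 counts in the irradiated DE2 and WT groups, and on 182 and 112 in the untreated DE2 and WT groups.

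In DE2 skin Cd207 fell by 2.61 ± 0.82 on the log2 scale after UVB (SE; adjusted p = 0.0318, edgeR quasi-likelihood test). In WT skin the log2 fold change was -2.62 ± 0.89, with an unadjusted p of 0.00973 and an adjusted p of 0.852 in the same test. The effects differed by 0.01 ± 1.21 (interaction, adjusted p = 0.994), an interval wide enough to hold a difference of more than 2-fold either way. Averaged over both genotypes Cd207 fell by 2.62 ± 0.61 on the log2 scale (adjusted p = 0.0105). That averaged call held with each library left out in turn, at adjusted p = 0.00192 to 0.0348; without irradiated WT replicate 1, the highest irradiated library, the log2 fold change was -3.66. The call within DE2 skin was less firm: the adjusted p was 0.0519 with library totals in place of TMM. It was 0.0728, 0.112 and 0.0662 without irradiated DE2 replicate 1, 2 or 3, and 0.118 without untreated DE2 replicate 1 (26.1 CPM). Between genotypes Cd207 was not past the threshold, at a log2 fold change of 0.97 ± 0.94 in irradiated skin (adjusted p = 0.718) and 0.95 ± 0.77 in untreated skin (adjusted p = 0.41). In bulk RNA, fewer cells of a type and less RNA per cell cannot be told apart. Nor can irradiation and body site in these groups. The fall stood beside shifts in other tissue that differed between genotypes. In DE2 skin the summed hair follicle genes were at 8962 to 14550.0 CPM in irradiated and 147 to 781 CPM in untreated libraries, and the summed muscle genes at 23300.0 to 29950.0 and 57250.0 to 130100.0 CPM. In WT skin hair follicle genes were at 22390.0 to 25370.0 CPM in irradiated and 10660.0 to 20970.0 CPM in untreated libraries, and muscle genes overlapped, at 12200.0 to 55480.0 and 26080.0 to 33340.0 CPM. Their part in the Cd207 values was not tested.

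**Figure D2:**
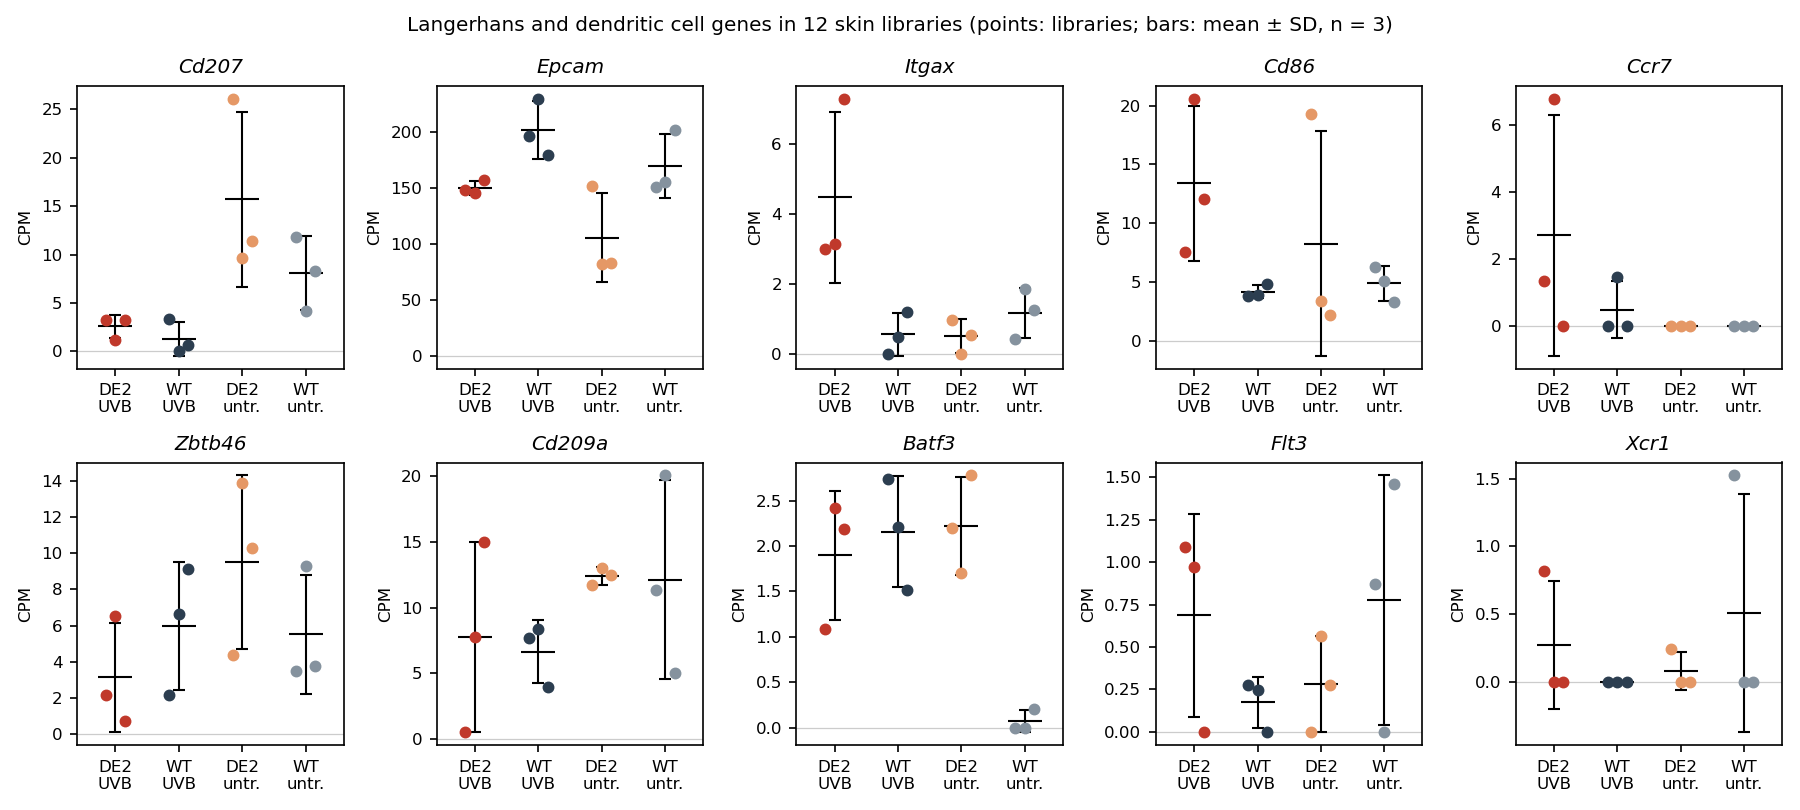
CPM (vertical axes, scaled per gene) of the 10 members in each of the 12 libraries; points are libraries, and bars show mean ± SD (n = 3) for irradiated DE2, irradiated WT, untreated DE2 and untreated WT skin. Cd207 is lower in all 6 irradiated than in all 6 untreated libraries, Itgax is highest in irradiated DE2 skin, and Batf3 is near 0 in untreated WT skin alone.

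The genes that keep Langerhans cells in the epidermis did not move as a block. Il34, the keratinocyte cytokine that sustains Langerhans cells through the receptor Csf1r, fell with UVB in DE2 skin as Cd207 did. It stood at 4.08, 10.9 and 10.6 CPM in irradiated DE2 libraries, 6.58, 7.63 and 20.4 CPM in irradiated WT libraries, 84.1, 57.2 and 57.2 CPM in untreated DE2, and 26.6, 20.0 and 27.1 CPM in untreated WT libraries. The DE2 groups were far apart, while the highest irradiated WT library reached the lowest untreated WT library. Il34 fell by 2.96 ± 0.43 on the log2 scale in DE2 skin (adjusted p = 0.000288, edgeR), whereas in WT skin the log2 fold change was -1.10 ± 0.43 (adjusted p = 1). The interaction was -1.86 ± 0.61 (adjusted p = 0.0643). Untreated DE2 skin held more Il34 than untreated WT skin (log2 fold change 1.43 ± 0.41, adjusted p = 0.0218), so part of the gap in DE2 skin lies in its untreated libraries.

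Of the 14 genes in the Langerhans upkeep list, all tested, 3 rose and 1 fell between irradiated and untreated DE2 skin, or 4 of 14 where 27.8% of all genes were called, a share near the background. The list's median log2 fold change was 0.40, beside 0.02 over all genes. The 3 were Bmp7, a morphogen that drives Langerhans cell differentiation, at 2.02 ± 0.26 (adjusted p = 7.24e-05, edgeR), Id2, a transcription factor that Langerhans cells and type 1 dendritic cells need in mice, at 1.12 ± 0.24 (adjusted p = 0.00374), and Cd24a, a surface glycoprotein of keratinocytes and dendritic cells, at 1.08 ± 0.32 (adjusted p = 0.0215). Between untreated DE2 and untreated WT skin 2 of the 14 were higher (Il34 and the integrin Itgb6, which activates TGF-beta, at 1.24 ± 0.42) and 2 lower (Id2 at -1.79 ± 0.24 and Bmp7 at -1.88 ± 0.26); 23.0% of all genes were called there, and the list's median was 0.26, beside 0.03 over all genes. Bmp7 averaged its lowest levels in untreated DE2 skin, at 28.3, 19.2 and 14.5 CPM, against 64.9, 89.9 and 73.4 CPM in untreated WT skin. All 13 tested hair follicle genes were also lower there, with a median log2 fold change of -5.55, and hair follicle cells express Bmp7 and Id2 too; their part was not tested. In irradiated skin 1 of the 14 genes, Cd24a, was higher in DE2 than in WT (1.47 ± 0.32, adjusted p = 0.0241), at 474, 575 and 389 CPM in DE2 and 157, 238 and 124 CPM in WT libraries, with no overlap. This was 1 of 14 where 2.96% of all genes were called, and no gene of the list passed in 4 of the 6 fits that left out 1 of these libraries. Keratinocyte genes were higher in the same comparison for 3 of 7. They summed to 20840.0 to 26150.0 CPM in irradiated DE2 and 4984 to 7427 CPM in irradiated WT skin. Most of the sum in irradiated DE2 skin was Krt14 (13290, 17320 and 16240 CPM), while Krt10 and Trp63 overlapped between the groups. The part of keratinocyte genes in the Cd24a values was not tested.

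**Figure D3:**
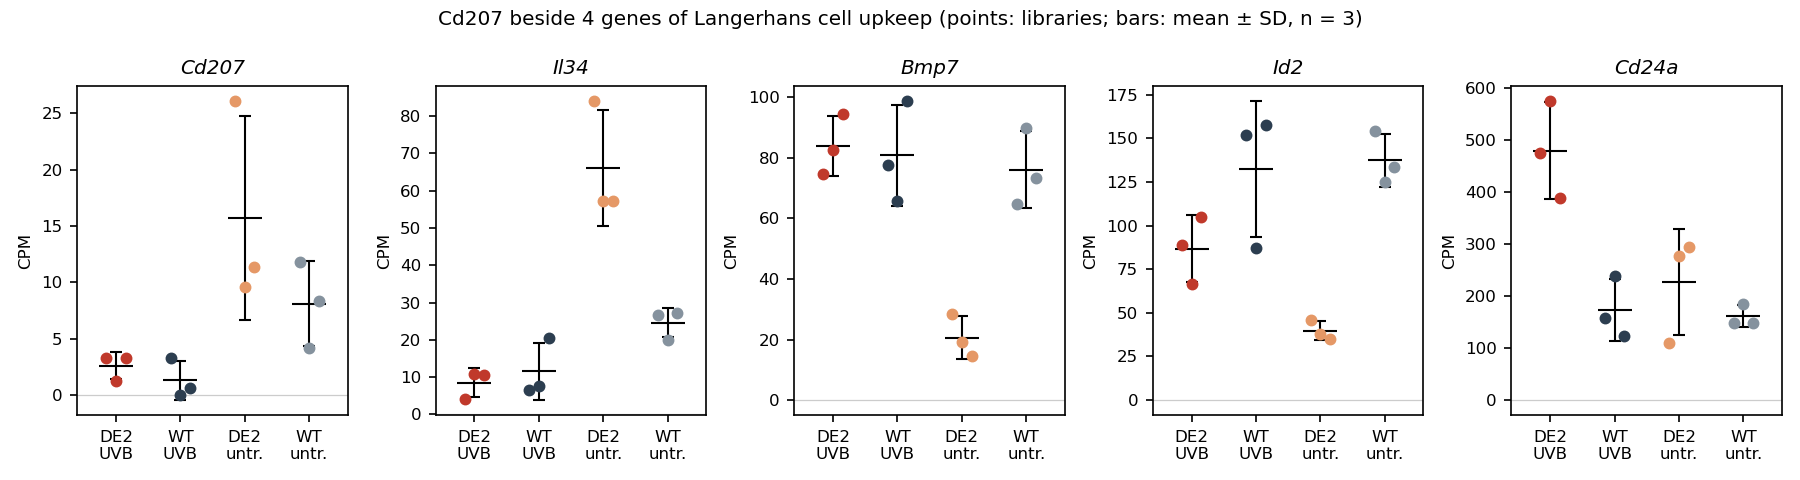
CPM of Cd207 and of Il34, Bmp7, Id2 and Cd24a in the 12 libraries, as points with mean ± SD (n = 3) per group. Cd207 and Il34 are lower in irradiated than in untreated DE2 skin, while Bmp7 and Id2 are lowest in untreated DE2 skin and Cd24a is highest in irradiated DE2 skin.

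Epcam, an adhesion molecule of Langerhans cells and of hair follicle and other epithelia (ENSMUSG00000045394, chromosome 17, 87635979 to 87651129, plus strand), did not follow Cd207. Its levels were 148, 145 and 157 CPM in irradiated DE2 libraries, 196, 229 and 179 CPM in irradiated WT libraries, 151, 82.1 and 82.8 CPM in untreated DE2, and 150.2, 155 and 202 CPM in untreated WT libraries. In irradiated skin the 3 DE2 libraries lay below the 3 WT libraries; in untreated skin the groups overlapped, since untreated DE2 replicate 1 reached the lowest WT library. Untreated DE2 skin held less Epcam than untreated WT skin (log2 fold change -0.68 ± 0.23, adjusted p = 0.0453, edgeR). The difference in irradiated skin was -0.43 ± 0.23 (adjusted p = 0.427), and the interaction was 0.26 ± 0.33 (adjusted p = 0.676).

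The Epcam call lay close to the threshold. The adjusted p was 0.0513 with no filter, 0.0502 with a filter of 1 CPM in 3 libraries and 0.0684 with only the libraries compared. It was 0.201 and 0.192 without untreated DE2 replicate 2 or 3, and 0.0565, 0.0655 and 0.137 without untreated WT replicate 1, 2 or 3. Without untreated DE2 replicate 1 the log2 fold change was -1.03 (adjusted p = 0.00149), and UVB in DE2 skin then gave a log2 fold change of 0.86 (adjusted p = 0.0039), against 0.51 ± 0.23 with it (adjusted p = 0.12). Of 8 genes of Epcam-bearing epithelium, 1 was lower in untreated DE2 than in untreated WT skin (Krt18, a keratin of simple epithelium, at -6.75 ± 1.53). That is 1 of 8 beside 23.0% of all genes called, a share below the background, and the list's median was -0.35. Summed, these 8 genes stood at 338 to 680.4 CPM in untreated DE2 and 449 to 642 CPM in untreated WT libraries. The lower Epcam of untreated DE2 skin stands beside the lower hair follicle genes given above, whose part in it was not tested.

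Itgax encodes CD11c, the integrin chain that pairs with Itgb2 on dendritic cells, Langerhans cells and many macrophages (ENSMUSG00000030789, chromosome 7, 128129547 to 128150657, plus strand). It was highest in irradiated DE2 skin, at 2.99, 3.15 and 7.29 CPM, against 0, 0.492 and 1.22 CPM in irradiated WT libraries, 0.975, 0 and 0.556 CPM in untreated DE2, and 0.435, 1.86 and 1.25 CPM in untreated WT libraries. The 3 irradiated DE2 libraries lay above the other 9, on 44 counts against 6, 6 and 16 in the other groups. The log2 fold change was 2.92 ± 1.21 against irradiated WT skin (adjusted p = 0.247, edgeR) and 3.02 ± 1.21 against untreated DE2 skin (adjusted p = 0.0746). In WT skin UVB gave -1.04 ± 1.25 (adjusted p = 1), and the interaction was 4.05 ± 1.74 (adjusted p = 0.138). Since Itgax entered the test only through irradiated DE2 skin, these fold changes describe the libraries and are no evidence of a difference; with no filter the adjusted p was 0.303 against irradiated WT and 0.106 against untreated DE2 skin (edgeR).

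Markers of other leukocytes differed in how they moved beside Itgax. Ptprc, the pan-leukocyte marker CD45, stood at 35.4 to 51.1 CPM there and at 5.17 to 10.6 CPM in irradiated WT skin (log2 fold change 2.50 ± 0.52, adjusted p = 0.0202, edgeR). The 6 neutrophil genes summed to 4057 to 4396 CPM against 182 to 380 CPM, with 3 of 5 tested genes higher. S100a8 (1916, 2176 and 2366 CPM in irradiated DE2 libraries) and S100a9 (2010, 2135 and 1996 CPM) made up most of it. Csf3r (38.1, 37.0 and 6.93 CPM), Cxcr2 (31.8, 22.5 and 1.82) and Retnlg (56.85, 24.9 and 4.01) were lowest in replicate 3, where S100a8 was highest. The sum therefore does not track these less abundant neutrophil genes. The 8 T cell genes summed to 98.7 to 103 CPM against 36.8 to 44.0 CPM, with 1 of 7 higher. Of these, Trbc2 stood at 35.9, 51.3 and 52.1 CPM against 15.9, 14.3 and 14.0 CPM, while Cd3e and Thy1 overlapped. Calls in this comparison stood beside 2.96% of all genes. Csf3r, Cxcr2, Retnlg and, among the T cell genes, Cd8a passed the filter only with irradiated DE2 libraries, where they were highest. As for Itgax, their tests against that group were biased toward a difference. The 10 macrophage genes summed to 1108 to 1511 CPM against 589 to 1016 CPM, with 0 of 10 past the threshold and 2 under an unadjusted p of 0.05 (edgeR; DESeq2 also called 0). B cells left little trace: Ms4a1 was at 0 in every library, and the 1 tested gene of 4 did not pass. How far the cells behind these markers bear on Itgax and Cd86 in irradiated DE2 skin was not tested.

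**Figure D4:**
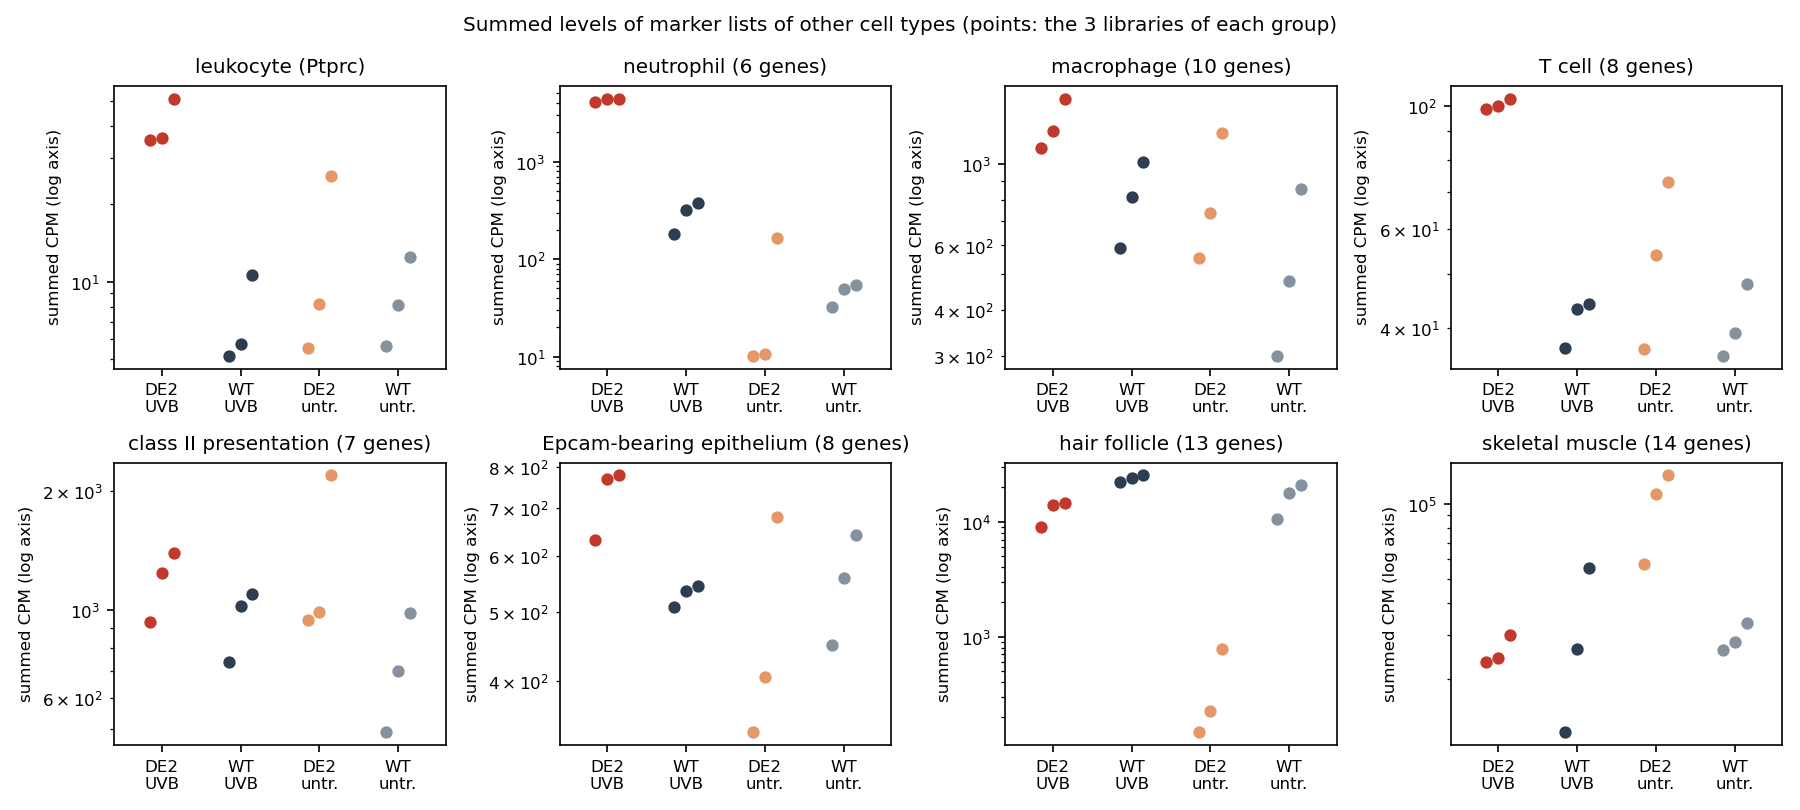
Summed CPM (log axes) of marker genes of other cell types and of class II presentation in the 12 libraries, 3 points per group. Leukocyte, neutrophil and T cell markers are highest in irradiated DE2 skin, at 4057 to 4396 CPM for the neutrophil genes. S100a8 and S100a9 make up most of that neutrophil sum, which does not track Csf3r, Cxcr2 and Retnlg across the irradiated DE2 libraries. Untreated DE2 skin has the lowest hair follicle and the highest skeletal muscle levels.

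Cd86, the costimulatory ligand of Cd28 and Ctla4 on T cells, is raised on activated dendritic cells, macrophages and B cells (ENSMUSG00000022901, chromosome 16, 36603869 to 36666081, minus strand). It stood at 7.62, 20.6 and 12.03 CPM in irradiated DE2 libraries, 3.84, 3.94 and 4.87 CPM in irradiated WT libraries, 19.3, 3.40 and 2.22 CPM in untreated DE2, and 6.31, 5.13 and 3.34 CPM in untreated WT libraries. All 3 irradiated DE2 libraries lay above all 3 irradiated WT libraries, and among untreated DE2 libraries replicate 1 stood far above the other 2. The log2 fold change between irradiated DE2 and irradiated WT skin was 1.67 ± 0.70, with an unadjusted p of 0.0331 and an adjusted p of 0.272 (edgeR). Between irradiated and untreated DE2 skin it was 0.69 ± 0.68 (adjusted p = 0.495). Without untreated DE2 replicate 1 that value became 2.24 with an adjusted p of 0.0166. Between untreated DE2 and untreated WT skin it was 0.76 ± 0.70 (adjusted p = 0.473) with that library and -0.80 (adjusted p = 0.388) without it. The same library had the highest Cd207, Ptprc (25.6 CPM) and class II levels of the 6 untreated libraries.

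Ccr7, the receptor that guides mature dendritic cells and naive T cells to lymph nodes, was counted in irradiated skin only (ENSMUSG00000037944, chromosome 11, 99144196 to 99155077, minus strand). It had 5, 28 and 0 counts in irradiated DE2 libraries and 0, 6 and 0 in irradiated WT libraries, and no count in the 6 untreated libraries. With 3 counts over a group as the limit that a count of 0 allows, Ccr7 could have reached 0.267 CPM in untreated DE2 and 0.219 CPM in untreated WT skin (counting error only). Irradiated DE2 skin stood 11.7-fold above the limit for untreated DE2 skin, and irradiated WT skin 2.49-fold above that for untreated WT skin. These bounds take the irradiated counts as exact, so counting error could place the ratios lower. The bound in WT skin rests on the 6 counts of 1 library, without which Ccr7 was at 0 in both groups, and the bound in DE2 skin was 2.92-fold without replicate 2. Pooled over libraries, the ratio of irradiated DE2 to irradiated WT skin was 5.74 (exact 95% interval 2.37 to 16.8, counting error only). Replicate 2 of irradiated DE2 skin held 28 of the 33 counts, so the spread between libraries is far wider than that interval. Of the 12 listed genes of mature dendritic cells, Cd40 (7.07, 14.0 and 5.10 CPM), Cd80 (2.45, 5.32 and 0) and Cd83 (5.98, 13.1 and 3.28) were also highest in that library. So were the sparse Ccl17, Il12b and Il4i1. Cd274, Ccl22, Marcksl1 and Socs2 were highest in replicate 1, and Fscn1 and Relb in replicate 3, so the list did not follow Ccr7 as a whole. Among T cell genes Cd3e (10, 25 and 2 counts), Cd4 (0, 12 and 3 counts) and, narrowly, Cd5 (5.44, 12.1 and 12.03 CPM) were highest in replicate 2 too. Cd3d (45, 15 and 2 counts), Cd3g and Cd8a were highest in replicate 1, and by CPM Trbc2 and Thy1 were highest in replicate 3. Ccr7 counts cannot be tied to dendritic cells or T cells. Ccr7 lay below the filter; fitted with no filter it had an adjusted p of 0.0143 between irradiated and untreated DE2 skin with edgeR, and with DESeq2 0.108.

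The genes that mature and migrating dendritic cells express were mixed. Of 12 listed genes 8 were tested, and 3 rose and 1 fell between irradiated and untreated DE2 skin (median log2 fold change 1.63), beside 27.8% of all genes called. Fscn1, the actin-bundling protein of mature dendritic cells, was at 3.12 ± 0.49 (adjusted p = 0.000431, edgeR), Marcksl1, a regulator of actin that many cells express, at 2.96 ± 0.29 (adjusted p = 8.77e-06), and Cd274, which encodes the inhibitory ligand PD-L1, at 2.67 ± 0.67 (adjusted p = 0.01). Relb, a subunit of NF-kappaB needed for dendritic cell maturation in mice, was lower at -1.28 ± 0.40 (adjusted p = 0.0293). Fscn1 stood at 17.7, 21.8 and 22.2 CPM in irradiated DE2 libraries, 14.8, 7.63 and 7.60 CPM in irradiated WT libraries, 1.46, 2.55 and 3.06 CPM in untreated DE2, and 8.05, 13.3 and 6.05 CPM in untreated WT libraries. The untreated DE2 libraries were the lowest of all, so the change with UVB in DE2 skin starts from a lower level than in WT skin. Hair follicle genes were lowest in the same libraries, as given for Cd207, and their part in the Fscn1 values was not tested.

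Between irradiated DE2 and irradiated WT skin, Cd274 was the 1 of the 8 that passed, at 72.1, 36.8 and 31.4 CPM in DE2 and 4.38, 7.87 and 4.56 CPM in WT libraries (log2 fold change 3.05 ± 0.68, adjusted p = 0.031, edgeR). That is 1 of 8 beside 2.96% of all genes, and none of the 8 passed in 5 of the 6 fits that left out 1 of these libraries. The groups did not overlap; Cd274 is also expressed by keratinocytes and neutrophils. In untreated skin 1 of the 8 was higher in DE2 than in WT (Relb, 1.64 ± 0.40) and 2 were lower (Marcksl1 at -3.33 ± 0.29 and Fscn1 at -1.95 ± 0.49), beside 23.0% of all genes called.

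Zbtb46, a transcription factor of conventional dendritic cells that endothelial cells also express, had no group that stood apart (ENSMUSG00000027583, chromosome 2, 181387762 to 181459426, minus strand). Its levels were 2.18, 6.53 and 0.729 CPM in irradiated DE2 libraries, 2.19, 6.64 and 9.12 CPM in irradiated WT libraries, 4.39, 13.9 and 10.3 CPM in untreated DE2, and 3.48, 9.32 and 3.75 CPM in untreated WT libraries. The groups overlapped in every comparison. The log2 fold change was -0.88 ± 0.78 between irradiated DE2 and irradiated WT skin (adjusted p = 0.688, edgeR) and -1.55 ± 0.77 between irradiated and untreated DE2 skin (adjusted p = 0.157). With an SE of that size, a modest difference was not detectable at this depth. Zbtb46 overlaps Gm22708 on its own strand, and no source used here gives the authors' strand setting.

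Flt3, the receptor through which Flt3l drives dendritic cell development, had 4, 4 and 0 counts in irradiated DE2 libraries, 1, 1 and 0 in irradiated WT, 0, 2 and 1 in untreated DE2, and 4, 0 and 7 in untreated WT libraries (ENSMUSG00000042817, chromosome 5, 147330741 to 147400489, minus strand). Pooled ratios all had exact 95% intervals that include 1, for example 4.17 (0.833 to 40.3) for irradiated DE2 over irradiated WT skin. Flt3 overlaps Gm26597 on the opposite strand. Its ligand Flt3l was tested, at a log2 fold change of 0.29 ± 0.69 between irradiated DE2 and irradiated WT skin (adjusted p = 0.906, edgeR) and -0.86 ± 0.67 between irradiated and untreated DE2 skin (adjusted p = 0.377).

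Batf3, the AP-1 family factor on which type 1 dendritic cells depend, was nearly absent from untreated WT skin and present in the other 3 groups (ENSMUSG00000026630, chromosome 1, 191097847 to 191108945, plus strand). It had 4, 10 and 6 counts in irradiated DE2 libraries, 10, 9 and 5 in irradiated WT, 9, 6 and 10 in untreated DE2, and 0, 0 and 1 in untreated WT libraries. Every library of the first 3 groups had at least 4 counts and no untreated WT library more than 1. The pooled ratio of untreated DE2 to untreated WT skin was 30.4 (exact 95% interval 4.98 to 1250.0), and that of irradiated WT to untreated WT skin 29.8 (4.87 to 1227). Irradiated DE2 over irradiated WT skin gave 0.869 (0.455 to 1.64). These intervals cover counting error only.

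Batf3 lay below the filter of the main test. Fitted with no filter, edgeR gave a log2 fold change of 4.43 ± 1.94 between untreated DE2 and untreated WT skin (adjusted p = 0.0311) and 4.39 ± 1.94 between irradiated and untreated WT skin (adjusted p = 0.324). DESeq2 gave 4.81 ± 1.46 (adjusted p = 0.00651) and 4.77 ± 1.46 (adjusted p = 0.433) for the same comparisons. For the interaction DESeq2 gave -5.00 ± 1.73 (adjusted p = 0.033) and edgeR with no filter -4.62 ± 2.29 (adjusted p = 0.132). Activated T cells express Batf3 as well, and the 8 T cell genes summed to 36.7 to 72.9 CPM in untreated DE2 and 35.7 to 47.9 CPM in untreated WT skin, overlapping ranges.

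Xcr1, the receptor for Xcl1 that marks type 1 dendritic cells, did not follow Batf3 (ENSMUSG00000060509, chromosome 9, 123852315 to 123862029, minus strand). It had 3 counts in replicate 1 of irradiated DE2 skin, 1 in replicate 1 of untreated DE2 skin, 7 in replicate 1 of untreated WT skin and none elsewhere. The limit for irradiated WT skin, with 0 counts, was 0.273 CPM. It lay 1.88-fold below the level of untreated WT skin, whose 7 counts, all in 1 library, were taken as exact. Of 9 further genes of type 1 dendritic cells 8 were tested; 2 rose between irradiated and untreated DE2 skin, Id2 as given above and Nfil3, a factor early in their development, at 1.44 ± 0.41 (adjusted p = 0.0182, edgeR), with a list median of 0.99. That is 2 of 8 beside 27.8% of all genes, a share near the background. Between untreated DE2 and untreated WT skin 1 of the 8 was lower (Id2), beside 23.0% of all genes, with a list median of -0.38.

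Cd209a encodes a DC-SIGN lectin of monocyte-derived and type 2 dendritic cells (ENSMUSG00000031494, chromosome 8, 3743397 to 3748984, minus strand). It stood at 0.544, 7.74 and 14.95 CPM in irradiated DE2 libraries, 7.67, 8.36 and 3.95 CPM in irradiated WT libraries, 11.7, 13.0 and 12.5 CPM in untreated DE2, and 11.3, 20.0 and 5.003 CPM in untreated WT libraries. The irradiated DE2 libraries ranged widely and overlapped every other group, with 2 counts in replicate 1 and 41 in replicate 3. The log2 fold changes were 0.19 ± 0.75 between irradiated DE2 and irradiated WT skin and 0.04 ± 0.72 between untreated DE2 and untreated WT skin (adjusted p = 0.951 and 0.98, edgeR). After UVB they were -0.70 ± 0.73 in DE2 skin (adjusted p = 0.521) and -0.85 ± 0.73 in WT skin (adjusted p = 1). Near-identical lectin genes of this family may share reads with Cd209a, which makes its counts uncertain.

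Of 10 genes of type 2 and monocyte-derived dendritic cells 9 were tested. Klf4, a factor of this subset and of barrier-forming keratinocytes, was higher in irradiated DE2 than in irradiated WT skin, at 232, 207 and 291 CPM against 136, 128 and 127 CPM (log2 fold change 0.90 ± 0.21, adjusted p = 0.032, edgeR); it was the 1 of 9 that passed, beside 2.96% of all genes, and the list's median was 0.35. None of the 9 passed when any 1 of these 6 libraries was left out, and Klf4 moved beside the higher keratinocyte genes given for Cd24a, whose part was not tested. Between irradiated and untreated DE2 skin 2 of the 9 rose, Notch2 (1.12 ± 0.29) and Sirpa (0.87 ± 0.30), with a median of 0.52, a share below the 27.8% of all genes called. In untreated skin Mgl2, a lectin of dermal dendritic cells and macrophages, was higher in DE2 than in WT (1.24 ± 0.39, adjusted p = 0.0345) and Notch2 lower (-1.10 ± 0.28), with a median of 0.32; these are 2 of 9 beside 23.0% of all genes. Clec4a4 was at 0 in irradiated WT, untreated DE2 and untreated WT skin.

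Class II presentation genes, which all these cells express along with macrophages and B cells, were higher in untreated DE2 than in untreated WT skin for 3 of 7, beside 23.0% of all genes called. H2-Eb1, a class II chain, was at 1.07 ± 0.32 (adjusted p = 0.0279, edgeR), H2-Aa, another, at 1.07 ± 0.34 (adjusted p = 0.0371), and H2-DMa, which helps load peptides, at 1.45 ± 0.44 (adjusted p = 0.03). The list's median was 0.88, beside 0.03 over all genes. H2-Eb1 stood at 298, 115 and 130.0 CPM in untreated DE2 and 90.3, 105 and 63.4 CPM in untreated WT libraries, with no overlap but with replicate 1 of DE2 far above the rest. H2-Aa, at 425, 159 and 174 CPM in untreated DE2 and 111, 164.5 and 86.3 CPM in untreated WT libraries, overlapped, as did the summed class II level, at 944 to 2194 and 491 to 986 CPM. None of the 7 genes passed without untreated DE2 replicate 1, where the list's median was 0.41, nor without untreated WT replicate 1 or 3; 1 passed without untreated WT replicate 2, and 4 and 5 without untreated DE2 replicate 2 or 3. Macrophage genes stood at 554 to 1217 CPM in untreated DE2 and 299.7 to 855.5 CPM in untreated WT skin, with 1 of 10 higher and a median log2 fold change of 0.63, and their part in the class II values was not tested. The summed class II level was 936 to 1392 CPM in irradiated DE2 and 739.5 to 1096 CPM in irradiated WT skin, overlapping ranges with a list median of 0.27.

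Of 6 genes used for plasmacytoid dendritic cells 5 were tested, and those that moved are genes that interferon induces in many cells. Bst2, the virus-tethering protein, was higher in irradiated DE2 than in irradiated WT skin, at 101, 92.7 and 99.5 CPM against 28.2, 35.9 and 33.5 CPM (log2 fold change 1.58 ± 0.29, adjusted p = 0.0101, edgeR), 1 of the 5 beside 2.96% of all genes. None of the 5 passed without irradiated WT replicate 1. Between irradiated and untreated DE2 skin 2 of the 5 rose, Bst2 (1.88 ± 0.29) and Irf7, the master regulator of interferon genes (1.76 ± 0.35), beside 27.8% of all genes. Spib was at 0 in irradiated DE2, irradiated WT and untreated DE2 skin.

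Among 10 ligands and partners of the members only 3 were tested. Itgb2, the partner chain of Itgax and of other leukocyte integrins, rose with UVB averaged over both genotypes (log2 fold change 1.52 ± 0.48, adjusted p = 0.0472, edgeR), 1 of the 3 beside 14.7% of all genes. It stood at 35.9, 29.0 and 22.2 CPM in irradiated DE2, 5.21, 17.0 and 3.95 CPM in irradiated WT libraries, 4.87, 11.6 and 8.06 CPM in untreated DE2, and 0.435, 6.29 and 4.59 CPM in untreated WT libraries. As for Itgax, the 3 irradiated DE2 libraries lay above the other 9. Ccl20, which draws Ccr6-bearing Langerhans precursors to the epidermis, had a log2 fold change of -2.52 ± 0.87 in the same comparison (adjusted p = 0.0647). Ccl21a, a ligand of Ccr7, was at 0 in all 12 libraries.

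For each tested member, the tested genes whose centred log2 CPM lay closest over the 12 libraries were found among 13743 genes whose mean log2 CPM was 1 or more; likeness is the root mean square difference, in log2 units. Cd207 was nearest to Slc6a9 (0.883), Gm12216 and Gm45828, against its own spread of 1.78. Itgax was nearest to Lpin2 (0.687), Adm and BC016579, against a spread of 1.40, and Cd86 to Col1a1 (0.404), Clec4a3 and Col1a2, against 0.94. Epcam was nearest to Adgrl2 (0.176), Prpf38a and Rnf39, against 0.43. Zbtb46 was nearest to Smcr8 (0.528), Depdc7 and D730003I15Rik, against 1.06, and Cd209a to Gm15708 (0.467), Ggcx and 1110019D14Rik, against 1.17. The likeness of sparse genes such as Cd207 is loose.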

How the data were processed

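Per the labels, total RNA from mouse skin was sequenced in bulk. The authors deposited 1 file per library with read counts for each Ensembl gene, not normalized. The submitters' processing notes name GRCm38 as the build and HTSeq 2.0.2, SAMtools 1.16, Picard 3.1.0 and Trimmomatic 0.39 as tools. No source used here gives the aligner, annotation release, strand setting or treatment of duplicates. Of 53465 identifiers, 53274 matched a symbol, and exon lengths and positions came from GENCODE on GRCm38. No row without a gene name was present. Replicate libraries differed by more than sampling noise (chi-square per degree of freedom of 8.9 to 43.4), so none was counted as a copy.

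Counts were tested in R 4.3.3 with edgeR 4.0.16 (limma 3.58.1): filterByExpr over the 4 groups, TMM scaling, and a robust quasi-likelihood fit to all 12 libraries with 1 mean per group. The fit had 8 residual degrees of freedom and a common dispersion of 0.128 (biological variation of 35.8% between libraries). Benjamini-Hochberg adjustment covered the 15126 genes that passed the filter, and calls were made at 0.05. Centred log2 CPM used a prior count of 1. The fit was tested on simulated counts that gave every gene the same dispersion. Changes were placed only in genes with higher mean levels than Itgax or the members below the filter, so that test does not cover them. Members below the filter are given as counts with exact 95% intervals of pooled ratios, or with a bound from 3 counts over a group. Such a bound takes the counts of the other group as exact. Intervals cover counting error only, and reads without molecular identifiers are not independent molecules.

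The members and the 16 other gene lists were chosen with earlier results of these data known. Of 148 listed genes, 1 was not matched. Every member is named; of other lists up to 4 tested genes with the smallest p per comparison may be named. Alternatives were RLE scaling, library totals, TMM without muscle and keratin genes, no filter, a filter of 1 CPM in 3 libraries, DESeq2 1.42.0, only the libraries compared, and each library left out in turn. The mean of both UVB effects, and leaving out irradiated WT replicate 2 with untreated DE2 replicate 1, were added after the data were seen.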

Additional observations from a re-analysis of the deposited data

Results flagged for a closer look

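The effect of UVB differed between genotypes for 4 of the 53 tested genes in the lists of Langerhans and dendritic cells, their partners and class II presentation (7.55%, beside 10.5% of all genes), by the interaction test of edgeR's quasi-likelihood fit. The difference, DE2 effect minus WT effect on the log2 scale, was 1.93 ± 0.36 for Bmp7 (adjusted p = 0.00367), 1.18 ± 0.34 for Id2 (adjusted p = 0.0395), 2.98 ± 0.66 for Fscn1 (adjusted p = 0.0115) and 2.93 ± 0.40 for Marcksl1 (adjusted p = 0.000364). Each of the 4 had its lowest levels in untreated DE2 skin: Marcksl1 stood at 98.2, 84.0 and 66.3 CPM in irradiated DE2, 114, 74.8 and 140.2 CPM in irradiated WT libraries, 13.7, 6.79 and 11.4 CPM in untreated DE2, and 97.1, 129.8 and 96.5 CPM in untreated WT libraries. Id2 no longer passed in at least 8 of the 12 fits that each left out 1 library. Among markers of other tissue, 12 of 13 hair follicle genes passed the same test in the same direction (median 4.54), as did 1 of 5 neutrophil, 1 of 7 keratinocyte and 1 of 8 epithelial genes. Of the 5 neutrophil genes, Csf3r, Cxcr2 and Retnlg passed the filter only with irradiated DE2 libraries, where they were highest, so their tests were biased. In the other direction 4 of 14 skeletal muscle genes passed. The part of these tissues in the 4 differences was not tested. No tested member passed the interaction test: edgeR called 0 of 6, with 1 under an unadjusted p of 0.05 (Itgax, which entered the test only through irradiated DE2 skin, where it was high), and DESeq2 called Batf3.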

How the results depend on the processing

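For the 6 tested members there were 562 alternative values of the log2 fold changes. Of these, 519 kept their direction and their side of the threshold, 22 changed sign, 13 lost a call and 8 gained one. Every change of sign was in a value that was not called. Flt3, Xcr1, Ccr7 and Batf3 had no value in the main fit, so calls they gained are not in this tally. Members called between irradiated and untreated DE2 skin (1) became 0 with library totals, 2 with no filter (Cd207, Ccr7), 2 with DESeq2 (Cd207, Itgax) or only the libraries compared, 3 when irradiated WT replicate 2 was dropped together with untreated DE2 replicate 1 ("without both libraries" from here on), and 0 to 2 with each library left out in turn. Between untreated DE2 and untreated WT skin (1) they became 2 with DESeq2, 0 with only the libraries compared and 0 to 1 with each library left out; with no filter or with 1 CPM in 3 libraries the count stayed at 1, but Batf3 (adjusted p = 0.0311 and 0.0144) took the place of Epcam. For the mean UVB effect (1) they became 2 with no filter, with DESeq2 or without both libraries, and 1 to 2 with each left out; for the interaction DESeq2 called 1.

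Genes called between irradiated DE2 and irradiated WT skin (448) became 1031 with no filter, 853 with DESeq2, 754 without both libraries and 130 to 432 with each library left out. Between irradiated and untreated WT skin (3) they became 1 with library totals, 141 with no filter, 20 with DESeq2, 0 with only the libraries compared, 19 without both libraries and 0 to 8 with each left out. For the interaction (1585) they became 2438 with no filter and 878 to 2585 with each left out. For the mean UVB effect (2223) they became 3788 without both libraries and 1451 to 3024 with each left out, and between untreated DE2 and untreated WT skin (3477) 2108 to 3881. Library totals without TMM shifted the median of all genes by -0.37 between untreated DE2 and untreated WT skin, where 20.7% of calls were then higher, against 51.3% with TMM. They shifted it by 0.26 for UVB in DE2 skin, with 66.5% higher against 51.9%, and by 0.38 for the interaction, with 76.8% against 53.8%. Between irradiated DE2 and irradiated WT skin 79.5% of calls were higher with TMM and 64.5% with no filter.

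Between untreated DE2 and untreated WT skin, Cd209a turned to -0.38 with library totals, -0.031 with only the libraries compared, and -0.41 to 0.53 with each library left out. It ranged from -0.67 to 0.75 between irradiated DE2 and irradiated WT skin and from -0.71 to 0.79 in the interaction. Cd86 between untreated DE2 and untreated WT skin was -0.80 without both libraries and -0.80 to 1.24 with each left out. Zbtb46 in WT skin after UVB ranged from -0.32 to 0.70, and the Cd207 interaction from -0.59 to 2.10, at -0.009 without both libraries. The cause of these changes was not tested. No paired analysis was possible because the labels carry no replicate or animal numbers. Depth limits Flt3, Xcr1, Ccr7 and Batf3 most, with 11 to 70 counts each over all libraries.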
